A study of Homo sapiens with 15 samples.

Results

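The human genome holds its largest groups of zinc finger genes on chromosome 19, and 259 of these genes were followed here in T47D cells, an oestrogen receptor positive line of luminal breast cancer. A gene was taken when its symbol starts with ZNF and a digit, when it lies on chromosome 19, and when at least 3 of the 15 libraries held 10 or more of its counts. Of 298 such symbols on the chromosome, 259 passed, out of 60664 gene IDs in all, and all 259 were among the 16210 genes tested. They comprise 231 protein-coding genes, 18 long non-coding RNA genes such as antisense and divergent transcripts, and 10 pseudogenes. Just inside the count rule, ZNF350-AS1 had 82 counts and ZNF497-AS1 87 over all libraries, each with 3 libraries at 10 counts. Just outside it, ZNF837 had 90 counts and ZNF257 43, each with 2 such libraries.

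RNA was sequenced from 5 groups of 3 libraries. Parental cells on vehicle (PAR vehicle) are labelled sensitive to 4-hydroxytamoxifen (4-OHT), the active form of the antioestrogen tamoxifen. Resistant cells (TR), a line kept in charcoal-stripped serum with 4-OHT where the parental line was kept in full serum, received vehicle (TR vehicle), 4-OHT at 1 µM (TR 4-OHT), the FGF receptor inhibitor erdafitinib at 5 µM (TR erdafitinib), or both (TR combination). All groups spent 48 h in charcoal-stripped medium and then 120 h on drug or 0.05% DMSO. Each state is 1 line, so resistance and any other difference between the 2 lines, growth medium included, cannot be told apart. Nothing in the labels names separate derivations within a line, so the p-values measure only the spread between these libraries, which may be technical.

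A C2H2 zinc finger is a short loop of protein held by a zinc ion that reads a few bases of DNA, and these proteins string many fingers together. Most members of the chromosome 19 clusters also carry a KRAB box, which recruits TRIM28 (KAP1) and, through it, the histone H3 lysine 9 methyltransferase SETDB1 to silence the bound DNA, above all transposable elements. The genes multiplied by tandem duplication, so neighbours are often close relatives. ZNF91, for example, is known to bind SVA elements, and ZNF93 to bind older LINE-1 elements.

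Sorted by start, with a gap of more than 1 Mb between neighbouring starts ending a group, the members formed 9 clusters of at least 5 genes and 8 scattered members. Each cluster is called here by its first and last gene. The promoters of the ZNF101 to ZNF254 cluster resembled each other, and they are shown first because that cluster held 20 of the 44 members higher in TR vehicle than in PAR vehicle. In each of 28 members of that cluster with a window in the RefSeq table of build GRCh38.p14 (250 bases before to 50 after the start), the window held the run TCCAATCAG, the longest run common to all 28 on the strand of the gene. Searched on both strands, this run was in 0.849% of all 35116 windows. It was also in 18 of 24 members with a window in the ZNF653 to ZNF791 cluster and in 4 of 5 in the ZNF554 to ZNF77 cluster, and in 0 of the 163 members with a window elsewhere on the chromosome. The 250 bases before the start follow for 2 members that were higher in TR vehicle, ZNF723 (chr19:22832041-22832290, plus strand) and ZNF91 (chr19:23395472-23395721, minus strand), for ZNF726 of the same cluster, chosen after its values were seen because its fold change was nearest to none (chr19:23914636-23914885, plus strand), and for ZNF439 of the ZNF653 to ZNF791 cluster, which was lower (chr19:11848476-11848725, plus strand). Capitals mark the run.
ZNF723: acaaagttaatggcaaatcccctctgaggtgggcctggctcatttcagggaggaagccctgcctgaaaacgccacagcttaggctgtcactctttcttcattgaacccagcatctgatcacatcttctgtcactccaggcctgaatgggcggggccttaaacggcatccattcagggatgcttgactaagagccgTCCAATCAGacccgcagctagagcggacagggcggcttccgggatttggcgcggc
ZNF91: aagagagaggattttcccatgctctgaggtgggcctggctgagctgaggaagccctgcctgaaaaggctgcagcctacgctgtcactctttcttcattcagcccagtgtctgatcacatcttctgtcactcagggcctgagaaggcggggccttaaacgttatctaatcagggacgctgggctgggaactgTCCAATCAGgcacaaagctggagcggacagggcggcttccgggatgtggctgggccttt
ZNF726: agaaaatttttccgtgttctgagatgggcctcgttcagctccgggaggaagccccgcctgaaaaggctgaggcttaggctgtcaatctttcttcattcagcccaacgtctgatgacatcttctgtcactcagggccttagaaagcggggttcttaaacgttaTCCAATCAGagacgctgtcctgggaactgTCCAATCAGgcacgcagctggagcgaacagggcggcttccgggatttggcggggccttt
ZNF439: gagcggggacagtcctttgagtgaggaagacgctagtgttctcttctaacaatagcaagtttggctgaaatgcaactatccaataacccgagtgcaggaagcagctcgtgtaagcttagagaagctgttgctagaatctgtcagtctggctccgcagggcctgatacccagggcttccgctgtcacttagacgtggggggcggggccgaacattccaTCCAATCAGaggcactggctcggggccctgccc
The run was thus upstream of genes that rose, of one that was not called and of one that fell. A gene is called here where the p of edgeR's quasi-likelihood test between TR vehicle and PAR vehicle, adjusted over all genes tested by the Benjamini-Hochberg method, is under 0.05, and 19.9% of all genes were called higher and 16.0% lower. Over the 3 clusters that hold the run, 16 of 28 members with the run were called higher and 0 lower in the ZNF101 to ZNF254 cluster, 2 higher and 1 lower of 18 in the ZNF653 to ZNF791 cluster, and 0 higher and 3 lower of 4 in the ZNF554 to ZNF77 cluster. A match to these letters is a description of the window, not a binding site.

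The promoters of 2 genes that fell together with antisense partners starting nearby on the other strand are shown for contrast, ZNF528 (chr19:52397599-52397848, plus strand) and ZNF667 (chr19:56477346-56477595, minus strand). Capitals mark the CG dinucleotides, the sites of DNA methylation in mammals, of which the 250 bases hold 23 and 35. The windows are set by RefSeq's starts, which are those of the counting annotation for ZNF528 and for the genes above except ZNF726 (10 bases apart). For ZNF667 RefSeq's start lies 720 bases inside the gene as counted, so its window is not upstream of the start used for the counts. Methylation was not measured.
ZNF528: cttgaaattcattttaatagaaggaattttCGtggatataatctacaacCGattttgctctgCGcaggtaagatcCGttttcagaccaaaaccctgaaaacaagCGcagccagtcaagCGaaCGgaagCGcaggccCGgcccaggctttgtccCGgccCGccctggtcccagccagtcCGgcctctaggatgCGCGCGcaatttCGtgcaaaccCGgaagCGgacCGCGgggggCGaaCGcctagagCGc
ZNF667: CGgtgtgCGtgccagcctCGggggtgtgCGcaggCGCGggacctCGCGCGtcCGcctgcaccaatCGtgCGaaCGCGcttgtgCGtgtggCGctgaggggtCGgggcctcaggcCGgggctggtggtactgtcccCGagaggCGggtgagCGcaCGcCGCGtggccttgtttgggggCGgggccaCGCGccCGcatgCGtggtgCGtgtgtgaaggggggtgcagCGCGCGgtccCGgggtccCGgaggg

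Total counts per library ranged from 6946684 to 28717380, with PAR vehicle 2 and TR 4-OHT 2 the shallowest. Libraries of a group differed along an axis that carried 46.7% of the within-group variance and correlated with GC content across genes (Spearman 0.657, genes not being independent replicates), and the members are GC-poor, with a median of 45.8% against 49.2% over the genes tested. TR vehicle 1 stood apart in the members' levels: on log2(CPM + 0.5), relative to each member's mean over the 15 libraries, its median was 0.34, against -0.11 and -0.07 in TR vehicle 2 and 3. It was the highest TR vehicle library in 207 of 259 members (79.9%) and in 7622 of the 16210 genes tested. Counts of all members, of clusters and of a list of chromatin genes are therefore given below with and without TR vehicle 1. Luminal markers (ESR1, GATA3, FOXA1, KRT8, KRT18, KRT19, EPCAM and CDH1) were present in every group, with summed levels from 2850 to 4690 CPM (a count scaled to library size with TMM factors). All 5 leukocyte markers together reached at most 1.44 CPM and all 3 endothelial ones at most 0.0516 CPM in any library. The 6 fibroblast markers summed to 11.9 to 28.2 CPM in PAR vehicle, where every one but COL1A1 was at 0, and to 13.3 to 37.6 CPM in TR vehicle, where COL1A2 and PDGFRB were at 0. Their part in the results was not tested.

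Between TR vehicle and PAR vehicle, 44 of the 259 members were higher and 30 lower by the edgeR test. Over all 16210 genes, 19.9% were called higher and 16.0% lower, against 17.0% and 11.6% of the members, so the members as a whole did not exceed that background. The members' median log2 fold change was 0.11, against 0.07 over all genes, 0.45 over the 890 other genes tested on chromosome 19 and -0.15 over the 263 ZNF genes on other chromosomes. Of those 263, 26 were higher and 47 lower. Counted without a model, all 3 TR vehicle values lay above all 3 PAR vehicle values in 57 members (22.5% of all genes) and below them in 40 (18.5% of all genes). Without TR vehicle 1 the members split 31 higher and 37 lower (20.1% and 17.0% of all genes) and their median turned to -0.03, against 0.08 over all genes, so the sign of the members' median rests on that library. Without TR vehicle 2 or TR vehicle 3 the number lower was 19. A GC content and length offset gave 55 higher and 52 lower, or 21.2% and 20.1% of the members against 23.8% and 25.6% of all genes. The within-group axis as a covariate gave 59 and 47 (22.8% and 18.1%, against 29.4% and 22.5%), and a fit on the 6 vehicle libraries alone 16 and 19 (6.25% and 7.42%, against 11.7% and 10.6%). In each of these 3 settings the members' share stayed below that of all genes. With no filter on low counts it was above, with 14.7% of the members higher and 8.11% lower. Of the 31360 genes then tested, which include those with few counts, 11.2% were higher and 6.88% lower.

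**Figure D1:**
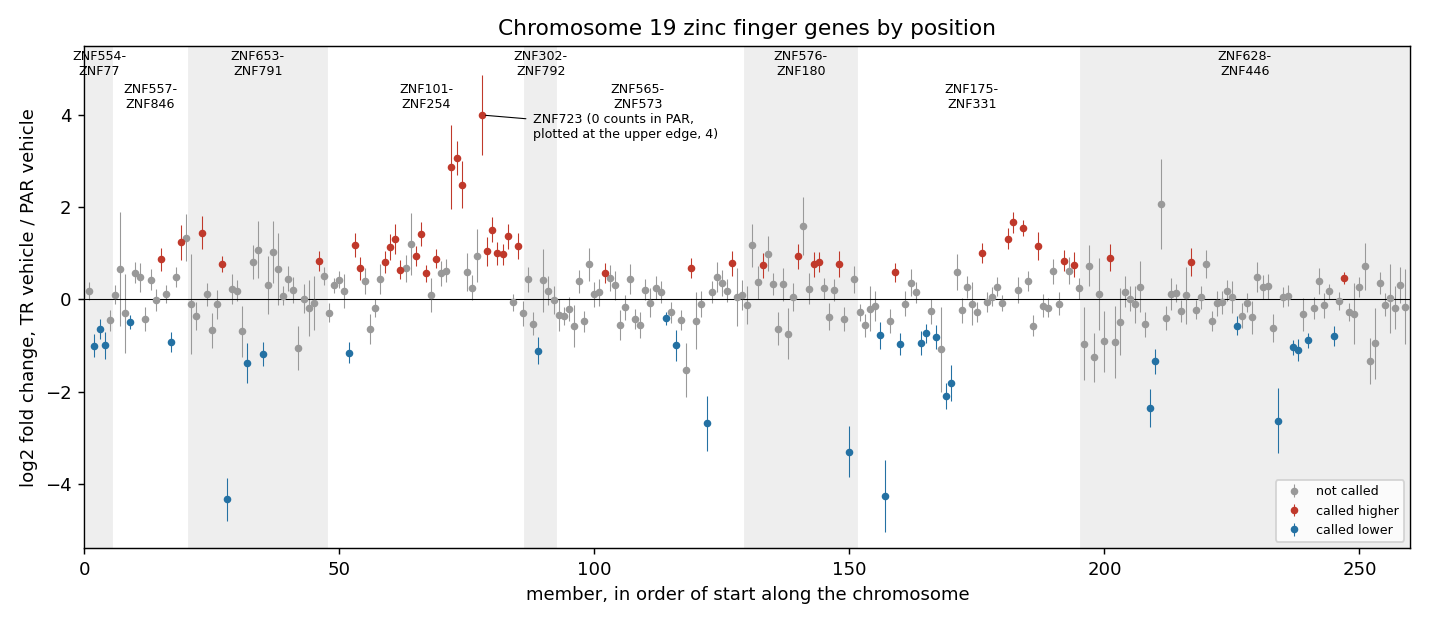
Log2 fold change of TR vehicle over PAR vehicle (points, with bars of 1 SE) for the 259 members in order of start along chromosome 19, shaded by cluster; red is called higher, blue called lower, grey not called. The called rises gather in the ZNF101 to ZNF254 cluster (20 of its 37 members), and ZNF723, with 0 counts in PAR vehicle, is drawn at the upper edge.

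The ZNF101 to ZNF254 cluster, on chromosome 19 from 19668796 to 24129968 (GRCh38), held 37 members. Of these, 20 were higher and 1 lower in TR vehicle (54.1% and 2.7%, against 19.9% and 16.0% of all genes). The cluster thus held 45.5% of the called rises and 14.3% of the members, and its median log2 fold change was 0.81. All 20 called rises had every one of the 12 TR libraries above every PAR vehicle library, under each of the drugs as well as on vehicle. The same held for 35 of all 44 called rises, and 29 of all 30 called falls had the 12 TR libraries below. The calls used the same PAR vehicle libraries, so this separation is not independent of them. Without TR vehicle 1 the cluster had 15 higher and 2 lower (40.5% and 5.41%, against 20.1% and 17.0% of all genes) and a median of 0.58. In a fit on the 6 vehicle libraries alone it had 11 higher (11.7% of all genes). The cluster's median GC content, 40.7%, was the lowest of the 9 clusters. With the GC content and length offset it had 24 higher and 2 lower (23.8% and 25.6% of all genes). With the within-group axis as a covariate it had 25 and 2 (29.4% and 22.5% of all genes). Of 20 tested genes that are no ZNF genes inside the same span, 2 were higher and 0 lower, with a median of 0.27. None of the 20 is annotated as protein-coding, and the SEs of their fold changes ran from 0.17 to 0.94. They therefore do not show how coding neighbours behaved. The 2 that were higher, ENSG00000277493 and ENSG00000233836, are annotated as pseudogenes. Relative to each member's mean, the cluster's median log2 level was between -0.67 and -0.42 in the PAR vehicle libraries. It was 0.61, -0.08 and 0.00 in TR vehicle 1, 2 and 3, and between -0.05 and 0.53 in the other 9 TR libraries, so PAR and TR libraries did not overlap. No test of the cluster against other genes was made.

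**Figure D2:**
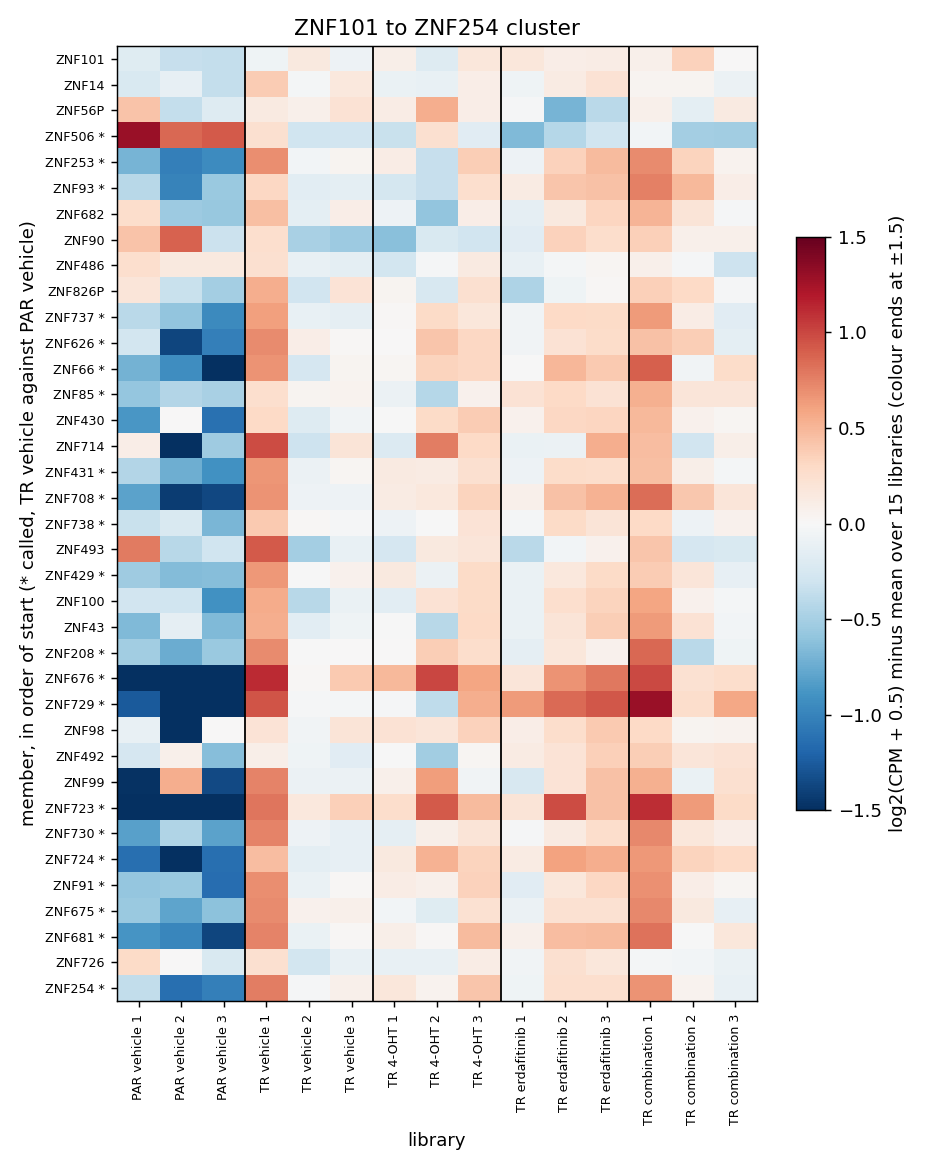
Levels of the 37 members of the ZNF101 to ZNF254 cluster (rows, in order of start) in the 15 libraries (columns), as log2(CPM + 0.5) minus each member's mean; an asterisk marks members called between TR vehicle and PAR vehicle. Most rows are blue in the 3 PAR vehicle columns and pale or red in the 12 TR columns, TR vehicle 1 is the reddest of its group, and ZNF506 runs the other way.

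ZNF723 (chromosome 19, 22832291 to 22858667, plus strand), whose protein carries 12 fingers by pattern, was the coding member with counts in the TR libraries and none in PAR vehicle. It had 0 counts in all 3 PAR vehicle libraries and 3.51, 2.06 and 2.46 CPM in TR vehicle, 195 counts in all. Against an allowance of 3 counts over the PAR vehicle group, which covers counting error only, it was at least 39.4-fold higher (edgeR adjusted p = 7.14e-06). Its means in TR 4-OHT, TR erdafitinib and TR combination were 2.94 ± 0.822, 2.93 ± 0.978 and 3.28 ± 1.08 CPM (SD, n = 3), near the TR vehicle mean of 2.67 ± 0.748.

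Of the 6 members before it in the same stretch, from ZNF208 on, ZNF208, ZNF676 and ZNF729 were called higher. The 3 members nearest to it, ZNF98, ZNF492 and ZNF99, were not called, with log2 fold changes of 0.60, 0.25 and 0.95 (edgeR adjusted p from 0.222 to 0.507). ZNF676 (22179089 to 22215801, minus strand) had 3.02, 2.06 and 1.64 CPM in PAR vehicle and 27.1, 12.4 and 16.2 in TR vehicle, a log2 fold change of 3.06 (SE 0.37, edgeR adjusted p = 1.79e-05). ZNF729, a protein of 34 fingers, had 1.43, 0.159 and 1.09 CPM in PAR vehicle and 8.35, 4.07 and 4.03 in TR vehicle (log2 fold change 2.49, SE 0.51, adjusted p = 0.00174). None of these groups overlapped. ZNF208, the member with the most fingers (36), had 3 counts over PAR vehicle and 36 over TR vehicle, a ratio of 7.28 with an exact 95% counting interval of 2.3 to 36.9.

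Among members at higher levels, the repressor of SVA elements ZNF91 (23304991 to 23395471, minus strand, 31 fingers) had 51.2, 51.8 and 34.3 CPM in PAR vehicle and 125, 71.5 and 77.8 in TR vehicle. Its log2 fold change was 1.00 (SE 0.25, edgeR adjusted p = 0.00561), and its groups did not overlap. ZNF93, the LINE-1 binder, had 11, 7.14 and 9.89 CPM in PAR vehicle and 18.6, 13.3 and 13.4 in TR vehicle (log2 fold change 0.68, SE 0.25, adjusted p = 0.0468). The next largest rises of the cluster were ZNF724 (1.51), ZNF708 (1.41), ZNF681 (1.37), ZNF66 (1.31), ZNF253 (1.17), ZNF254 (1.15) and ZNF626 (1.15), with adjusted p from 0.000697 to 0.00612. ZNF724 shares 44.7% of its exonic bases with another gene on its strand, so its counts are less certain.

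The 1 called fall was ZNF506, near the first end of the cluster. It had 49, 36.4 and 37.9 CPM in PAR vehicle and 23.4, 15.9 and 16.1 in TR vehicle, without overlap, a log2 fold change of -1.16 (SE 0.23, edgeR adjusted p = 0.00124). Of the cluster's 37 members, 33 had a positive log2 fold change. ZNF90 (-0.64), ZNF486 (-0.19) and ZNF726 (-0.07) were negative and not called. ZNF726 was close to level, with 21.4, 17.5 and 14.8 CPM in PAR vehicle and 20.7, 14.4 and 16.2 in TR vehicle.

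The ZNF175 to ZNF331 cluster (51571283 to 53580269), with 43 members, had 8 higher and 8 lower. These are 18.6% and 18.6% of its members, against 19.9% and 16.0% of all genes, so its counts were near that background. Most of its called rises and called falls lay in different stretches, which is a description only. Divided at ZNF701, a boundary chosen after the values were seen and therefore not tested, the 20 members from ZNF175 to ZNF808 had 1 higher and 8 lower with a median of -0.51. The 23 members from ZNF701 to ZNF331 had 7 higher and 0 lower with a median of 0.26. Without TR vehicle 1 the whole cluster had 6 higher and 9 lower, the first stretch 0 and 8 and the second 6 and 1, with medians of -0.65 and 0.05. The falls were ZNF613, ZNF350-AS1, ZNF614, ZNF836, ZNF766, ZNF610, ZNF528-AS1 and ZNF528, with ZNF615 rising among them (log2 fold change 0.59). Of these, ZNF350-AS1 met the count rule in only 3 libraries, so its fall is not independent of that rule. The rises were ZNF611, ZNF888, ZNF321P, ZNF702P, ZNF347, ZNF765 and ZNF813. The largest coding rises were ZNF888, with 22.1, 27.3 and 19.2 CPM in PAR vehicle and 76.6, 44.4 and 49.6 in TR vehicle (log2 fold change 1.32, SE 0.23, edgeR adjusted p = 0.000516), and ZNF347, at 1.16 (SE 0.3, adjusted p = 0.00773). Neither overlapped between the groups. In the fit on the 6 vehicle libraries alone ZNF347 lost its call (edgeR adjusted p = 0.066). ZNF320 and ZNF468, which were not called, share 99% or more of their 100-base stretches with other genes. They share only 0.0% and 0.55% of their exonic bases with another gene on their strand. Their mean levels over all libraries were 5.94 and 8.95 CPM per kilobase of exonic length, so reads were assigned to both. Whether the shared stretches affected their counts was not tested.

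**Figure D3:**
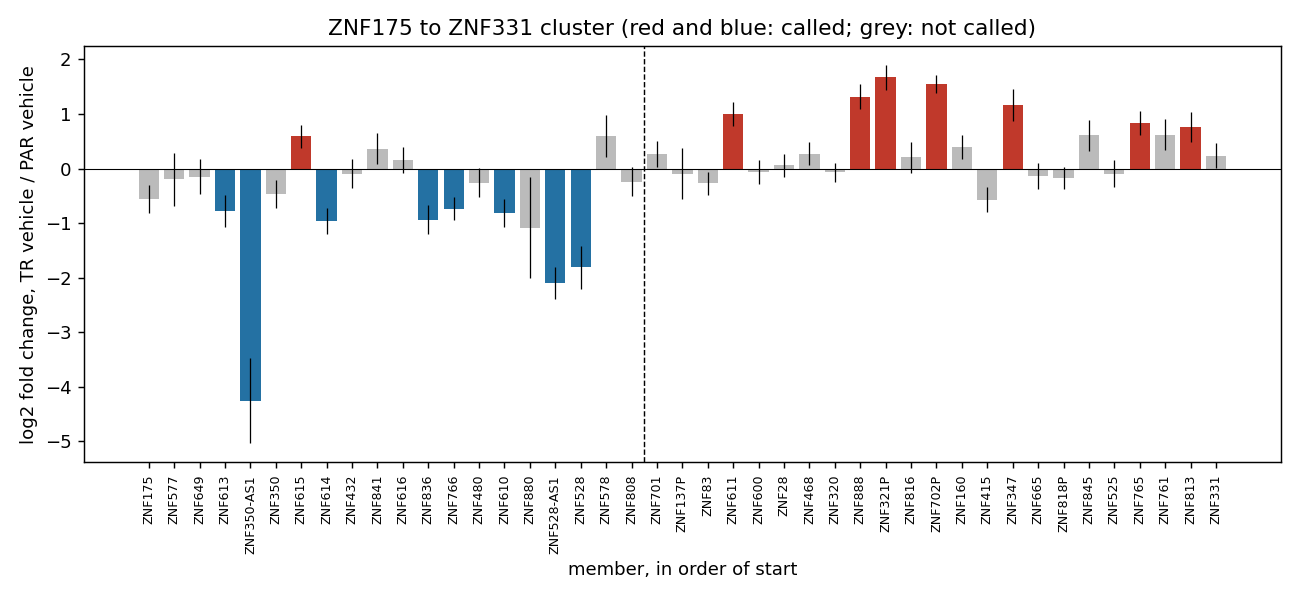
Log2 fold change of TR vehicle over PAR vehicle (bars, with 1 SE) for the 43 members of the ZNF175 to ZNF331 cluster in order of start; red and blue are called, grey is not, and the dashed line stands before ZNF701. All 8 called falls lie left of the line, and 7 of the 8 called rises lie right of it.

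The ZNF554 to ZNF77 cluster (2819868 to 2944971) was the one with the lowest median, -0.64, with 3 of its 5 members lower and 0 higher: ZNF555 (-1.01), ZNF556 (-0.64) and ZNF57 (-0.99). For this and the counts that follow, 19.9% of all genes were called higher and 16.0% lower. ZNF57 lost its call when PAR vehicle 2, TR vehicle 2 or TR vehicle 3 was left out (adjusted p 0.0772, 0.0642 and 0.0574). The ZNF576 to ZNF180 cluster had 5 higher and 1 lower of 22 (22.7% and 4.55%), with a median of 0.33. Its rises were ZNF45, ZNF224, ZNF234, ZNF226 and ZNF112, and its fall was ZNF229. The ZNF557 to ZNF846 cluster had 2 higher and 2 lower of 15 (13.3% and 13.3%) and a median of 0.43. The ZNF653 to ZNF791 cluster had 3 and 3 of 27 (11.1% and 11.1%) with a median of 0.11. The ZNF565 to ZNF573 cluster had 2 and 3 of 32 (6.25% and 9.38%) with a median of -0.14. In the largest, ZNF628 to ZNF446, 3 of 64 were higher and 8 lower (4.69% and 12.5%, median -0.10). The shares of the ZNF557 to ZNF846, ZNF653 to ZNF791, ZNF565 to ZNF573 and ZNF628 to ZNF446 clusters all lay below those of all genes. In the ZNF302 to ZNF792 cluster 1 of 6 was lower (16.7%), ZNF599, and of the scattered members 1 of 8 was higher (12.5%), ZNF780A. Within clusters, 25 neighbouring pairs had both members called, 22 of them in the same direction, and 13 of these 22 were pairs of rises in the ZNF101 to ZNF254 cluster. Called or not, 132 of the 242 neighbouring pairs within clusters (54.5%) shared a sign. Among neighbouring pairs of the other tested genes of chromosome 19, 556 of 889 (62.5%) did. The 2 shares are unlike, as 624 of the 890 other genes but 145 of the 259 members had a positive fold change. The other pairs also ran along the whole chromosome and not within clusters. Over the members' pairs the Spearman rho of the fold changes was 0.25, with no value for other genes. Pairs with both members called were likewise given no background. Without TR vehicle 1, 20.1% of all genes were called higher and 17.0% lower. In that fit the ZNF565 to ZNF573 cluster had 0 higher and 6 lower (0.0% and 18.8%, median -0.37). The ZNF576 to ZNF180 cluster had 2 and 1 (median 0.07) and the ZNF554 to ZNF77 cluster 0 and 2 (median -0.56). The ZNF628 to ZNF446 cluster then had 2 and 10, the ZNF557 to ZNF846 cluster 3 and 2, the ZNF653 to ZNF791 cluster 3 and 3, the ZNF302 to ZNF792 cluster 0 and 2, and the scattered members 0 and 0.

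The deepest fall was that of ZNF439 (11848726 to 11883750, plus strand), a KRAB zinc finger gene of 11 fingers. It had 6.12, 6.83 and 4.36 CPM in PAR vehicle and 0.258, 0.299 and 0.273 in TR vehicle, a log2 fold change of -4.34 (SE 0.46, edgeR adjusted p = 5.58e-06). The highest of the other 9 TR libraries was 0.514 CPM, so it was low throughout the resistant line. ZNF229 fell by 3.30 (SE 0.55, adjusted p = 0.000312), from 3.27, 5.87 and 2.8 CPM to 0.464, 0.374 and 0.342. Among members under the level for naming by rule, ZNF350-AS1, ZNF781 and ZNF671, picked after their values were seen, had log2 fold changes of -4.26, -2.69 and -2.63. ZNF350-AS1 met the count rule in only 3 libraries, with 82 counts in all. Its place among the members and its fall are therefore not independent, though it is kept in the counts of falls. With a filter of at least 1 CPM in 3 libraries it was not tested. ZNF439 met the count rule in 4 libraries.

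ZNF528 (52397849 to 52418412, plus strand) and ZNF528-AS1 start 66 bases apart on opposite strands and fell together. ZNF528 had 39.9, 34.6 and 23.9 CPM in PAR vehicle and 11.8, 7.29 and 8.99 in TR vehicle (log2 fold change -1.81, SE 0.39, edgeR adjusted p = 0.00251). ZNF528-AS1 had 15.3, 10 and 12.6 CPM and then 3.3, 2.8 and 2.77 (-2.10, SE 0.29, adjusted p = 7.13e-05). ZNF667 (56439325 to 56478065, minus strand) and ZNF667-AS1, which overlap head to head in the counting annotation with starts 815 bases apart, likewise both fell. ZNF667 had 27.2, 17.8 and 16.4 CPM and then 4.59, 3.07 and 4.37 (-2.35, SE 0.42, adjusted p = 0.00055). ZNF667-AS1 had 9.98, 6.67 and 12.9 CPM and then 3.61, 3.89 and 4.24 (-1.34, SE 0.27, adjusted p = 0.00155). None of the 4 overlapped between the groups, and counting was by strand. Of 16 such pairs of members that start within 1 kb of each other on opposite strands, these were the 2 with both members called, and 9 pairs shared a sign.

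ZNF552, first among the members by mean level per length over the 15 libraries, a rank that rests on PAR vehicle, fell by 1.03 (SE 0.16, edgeR adjusted p = 0.000197). It had 204, 178 and 208 CPM in PAR vehicle and 109, 93.4 and 85.4 in TR vehicle. Per kilobase of exonic length its group means were 65.8 ± 5.39 in PAR vehicle, 32.2 ± 4.09 in TR vehicle, 27 ± 5.44 in TR 4-OHT, 30.4 ± 0.154 in TR erdafitinib and 33 ± 4.07 in TR combination (CPM per kb, SD, n = 3), so the 4 TR groups were close together and PAR vehicle apart. Its neighbours ZNF587B and ZNF587 fell by 1.10 and 0.89. ZNF587 had 205, 152 and 140 CPM in PAR vehicle and 103, 82.6 and 82.5 in TR vehicle. The other named falls were ZNF844 (-1.19), ZNF599 (-1.11) and ZNF569, whose fold change was -0.999. ZNF844 shares 45.3% of its exonic bases with other genes. ZNF569 lost its call without PAR vehicle 1, PAR vehicle 2, TR vehicle 2 or TR vehicle 3, with adjusted p from 0.0643 to 0.107.

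**Figure D4:**
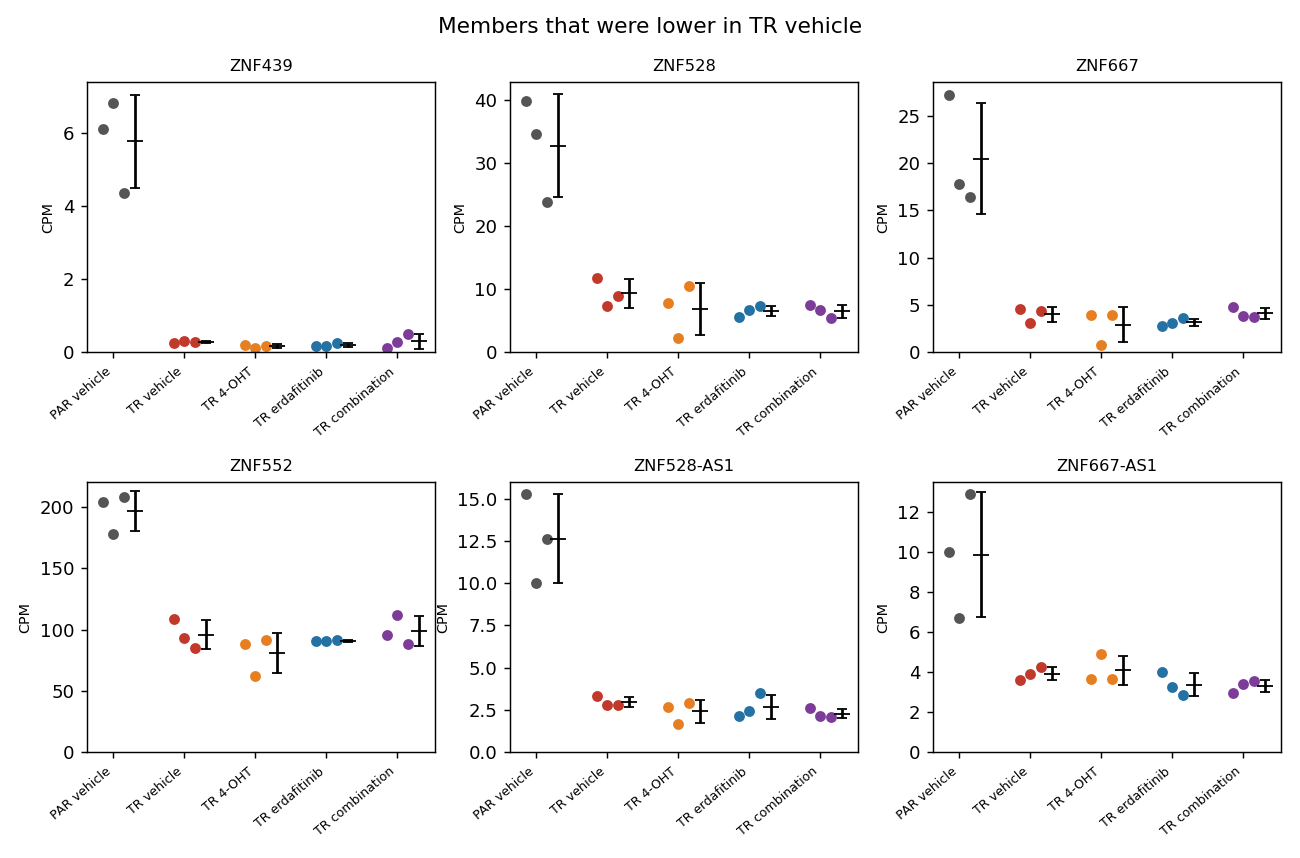
CPM in every library (points) with the group mean and SD (n = 3, black) for 4 protein-coding members and 2 antisense members that were lower in TR vehicle; each axis starts at 0. In all 6 panels the 3 PAR vehicle libraries lie above all 12 TR libraries, and ZNF439 falls from 5.77 to 0.277 CPM.

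Most members were low in level. The median over the 259 was 2.16 CPM per kb of exonic length, against 2.72 over all genes tested and 3.75 over the protein-coding ones, and the range was 0.0319 to 37.7. After ZNF552 the highest mean levels over the 15 libraries were those of ZNF146 (35.4 ± 6.14), ZNF83 (16.5 ± 4.45), ZNF587 (13.7 ± 4.99) and ZNF580 (13 ± 3.74 CPM per kb, SD over all libraries). ZNF552 was above ZNF146 in PAR vehicle (65.8 ± 5.39 against 42.2 ± 4.67, n = 3) and below it in mean in each of the 4 TR groups, where ZNF146 ranged from 31.5 to 35.7, and in TR vehicle the pair did not differ beyond their spread (32.2 ± 4.09 against 32.9 ± 9.16).

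Coding sequences from GENCODE 29 gave a protein for all 231 coding members, with a median of 12 C2H2 fingers and a range of 0 to 36 by a simple pattern. The median was 13 in members called higher, 12 in those called lower and 12 in those not called. A short core pattern of the KRAB box was in 164 of 231, in 30 of 39 coding members called higher and in 23 of 25 called lower. The pattern misses KRAB boxes of other sequence, as it matched 1 of 21 coding members in the ZNF576 to ZNF180 cluster, so these are counts of a match and not of a domain. The median number of CG dinucleotides in the 300-base promoter windows was 20 over 269 windows of members and 14 over all windows. It was 14 for members called higher, 19 for those called lower, 21 for those not called and 10 in the ZNF101 to ZNF254 cluster. That cluster holds 16 of the 35 members called higher that have a window, so cluster and call overlap here.

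A list of 37 chromatin genes was also followed. It covers TRIM28, SETDB1, heterochromatin proteins, the HUSH complex, DNA methyltransferases and other chromatin enzymes, among them demethylases such as KDM4C and the TET genes. KRAB proteins do not act through all of them, so counts over the list are no measure of KRAB silencing. Of the 37, 13 were higher and 5 lower in TR vehicle, where 19.9% and 16.0% of all genes were. Without TR vehicle 1, 12 were higher and 9 lower (20.1% and 17.0% of all genes). The genes named next were picked for their role or their p. TRIM28, the corepressor that KRAB boxes bind, had means of 48.9 CPM in PAR vehicle and 65.9 in TR vehicle (log2 fold change 0.42, SE 0.5, edgeR adjusted p = 0.549). SETDB1 fell by 0.60 (SE 0.14, adjusted p = 0.00339), from 113 to 74.4 CPM. DNMT1, the maintenance DNA methyltransferase, rose by 1.44 (SE 0.21, adjusted p = 9.8e-05), and UHRF1, which guides it to newly replicated DNA, rose by 2.63 (SE 0.4, adjusted p = 0.00015). KDM4C, a histone H3 lysine 9 demethylase, fell by 1.36 (SE 0.2, adjusted p = 0.000127). Under the drugs, 0 of the 37 were called.

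Within the resistant line, few genes of any kind were called under the drugs, and the members' counts sat at that background. Their median log2 fold change was -0.10 for 4-OHT, -0.06 for erdafitinib, 0.08 for both drugs against 4-OHT and 0.04 for both against erdafitinib. Without TR vehicle 1 the first 2 medians were 0.08 and 0.12, so their sign rests on that library. With 4-OHT against vehicle, 0 of 259 members were called by edgeR and 0 had an unadjusted p under 0.05, as 0.0% of all genes were called. With erdafitinib against vehicle, 0 were called (of all genes, 0.0432% were higher, 0.0494% lower and 0.0925% either) and 5 had an unadjusted p under 0.05. With both drugs against 4-OHT, 0 were called (of all genes, 0.296% were higher, 0.345% lower and 0.642% either) and 7 had an unadjusted p under 0.05. With both drugs against erdafitinib, 0 were called (0.0% of all genes) and 0 had an unadjusted p under 0.05, and for the interaction of the drugs the counts were 0 (0.0% of all genes) and 1. DESeq2's Wald test also called 0 members in each of these 5. For each, the 3 coding members with the smallest p are named, with their log2 fold changes, and their edgeR adjusted p ranged from 0.397 to 1. They were ZNF331 (0.41), ZNF671 (-1.41) and ZNF229 (0.90) for 4-OHT, and ZNF610 (-0.79), ZNF331 (0.50) and ZNF83 (-0.46) for erdafitinib. For both drugs against 4-OHT they were ZNF229 (-1.59), ZNF223 (-1.31) and ZNF766 (0.49), and for both drugs against erdafitinib ZNF600 (0.36), ZNF606 (0.28) and ZNF136 (0.28). For the interaction they were ZNF606 (0.47), ZNF439 (1.20) and ZNF552 (0.37). ZNF610 had 6.08, 5.16 and 4.31 CPM in TR vehicle and 3.02, 2.62 and 3.38 in TR erdafitinib, so its groups did not overlap although its adjusted p was 0.656 by edgeR.

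Averaged over both backgrounds, with and without 4-OHT, erdafitinib left 0 members higher and 2 lower (of all genes, 0.777% were higher, 0.938% lower and 1.71% either). Among coding members the smallest p belonged to ZNF610 (-0.53), ZNF551 (0.54) and ZNF93 (0.45), with adjusted p from 0.216 to 0.297. The 2 calls are pseudogenes of the ZNF175 to ZNF331 cluster, named because they were the only calls. ZNF816, which lies between them, was not called (-0.15, adjusted p = 0.889). ZNF702P (52966896 to 53037898, minus strand) had 50.8, 40.1 and 43.2 CPM in TR vehicle and 44.4, 51.8 and 42.5 in TR 4-OHT. It had 30.4, 37 and 35.1 CPM in TR erdafitinib and 35.1, 32.1 and 25.8 in TR combination. The 6 libraries with erdafitinib lay below the 6 without it, and its log2 fold change was -0.48 (SE 0.11, edgeR adjusted p = 0.0471). ZNF321P (52927135 to 52942601, minus strand) had 9.23, 9.68 and 10 CPM in TR vehicle and 7.9, 11.5 and 10.5 in TR 4-OHT. It had 5.9, 6.16 and 6.06 CPM in TR erdafitinib and 5.83, 6.67 and 5.91 in TR combination, again without overlap (-0.68, SE 0.16, adjusted p = 0.0407). ZNF321P shares 40.2% of its exonic bases with the readthrough gene ZNF816-ZNF321P. Both calls are close to the threshold: leaving out any 1 of the 12 TR libraries left 0 or 1 of them called.

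Both pseudogenes were higher in TR vehicle than in PAR vehicle, which is not independent of the drug comparison, since TR vehicle is in both. ZNF702P had 14.9, 14.9 and 16 CPM in PAR vehicle (log2 fold change of TR vehicle over PAR vehicle 1.55, SE 0.17, edgeR adjusted p = 5.86e-06), and ZNF321P 3.27, 2.22 and 3.45 (1.67, SE 0.23, adjusted p = 6.8e-05). With erdafitinib they thus stood between the PAR vehicle and TR vehicle levels.

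**Figure D5:**
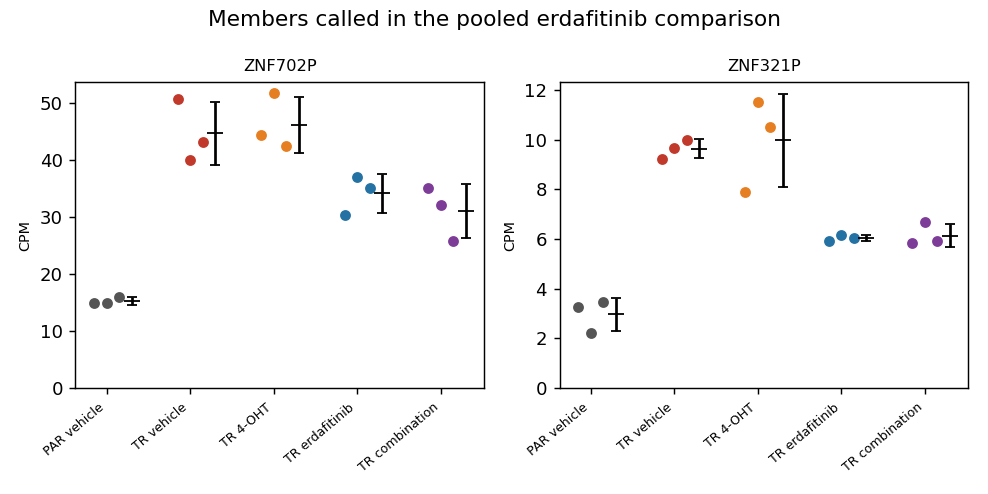
CPM of the pseudogenes ZNF702P and ZNF321P in every library (points) with the group mean and SD (n = 3, black), by group; each axis starts at 0. In both panels the 6 erdafitinib libraries lie below the 6 TR libraries without it and above the 3 PAR vehicle libraries.

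The member with the smallest p between the lines was ZNF439. Over the 5 group means of log2(CPM + 0.5), the members most like it were ZNF350-AS1 (Pearson r = 0.999), ZNF614 (0.998) and ZNF555 (0.997), a description over 5 points of which 4 are TR groups. ZNF439 met the count rule in 4 libraries and ZNF350-AS1 in 3.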

How the data were processed

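RNA of 15 libraries was counted by the authors per gene, and the deposited values are raw counts. Per the file headers these were made with featureCounts 2.0.1, paired-end and by strand, on Ensembl 104 (GRCh38). The submitters' processing notes name HISAT2 2.1.0 and featureCounts 1.4.6-p1. The members and lists were chosen with earlier results of these data known. In R 4.3.3, edgeR 4.0.16 was fitted once to all 15 libraries, with TMM factors and filterByExpr (16210 genes kept), a mean per group, quasi-likelihood tests and Benjamini-Hochberg adjustment over all genes tested. SE is the log2 fold change divided by the root of F. The script was tested on simulated data. Total counts ran from 6946684 to 28717380. Libraries of a group differed by a chi-square of 7.4 to 148 per gene, so none was a copy. Named coding members were the 12 largest called rises and falls between the lines with non-overlapping groups and a mean log2 CPM of at least 0, those at 0 in one group, and for other comparisons the 3 smallest p. Fingers were counted in GENCODE 29 coding sequences, since no protein table was used here. Promoter windows are RefSeq's, matched by symbol for 220 members. DESeq2 1.42.0 was an alternative, as were other normalization, filters, covariates, left-out libraries and cluster gaps.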

Additional observations from a re-analysis of the deposited data

How the results depend on the processing

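Between TR vehicle and PAR vehicle, no called member changed sign under any alternative tried. Against 44 higher and 30 lower, a fit on the 6 vehicle libraries alone gave 16 and 19, in which fewer samples set the spread. The within-group axis as a covariate gave 47 lower and the GC content and length offset 52, as the share of all genes called in either direction went from 35.9% to 51.9% and 49.5%, against 22.3% in the fit on the vehicle libraries. Leaving out 1 library gave 31 to 42 higher and 19 to 37 lower. Members called higher in the ZNF101 to ZNF254 cluster numbered 11 in the fit on the vehicle libraries and 15 to 21 without 1 library, and gaps of 0.5 or 2 Mb left that cluster as it was. For both drugs against 4-OHT, where 0 members were called, the axis covariate gave 1 and the GC content and length offset 2. For the pooled erdafitinib effect, where 2 were called, DESeq2 size factors gave 1, no filter on low counts 0, only the groups compared 1, the axis covariate 4, the GC content and length offset 6, removal of the 2 shallowest libraries 1, only protein-coding members 0, and leaving out 1 library 0 to 1; the cause was not tested.

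With the replicate number as a block, 41 members were higher and 27 lower between the lines and 0 were called for pooled erdafitinib. The libraries share only a number: same-number deviations correlated between -0.8 and 0.75, and 6 of 15 libraries correlated best with their own number.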
